A study of Mus musculus with 7 samples.

Results

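The genes described here are the replication-dependent histone genes, chosen by name as the protein-coding genes of the mouse annotation GENCODE M21 (build mm10) whose symbol begins with Hist1h, Hist2h, Hist3h or Hist4h. They numbered 67 of 21938 protein-coding genes, of which 6 encode the linker histone H1, 18 H2A, 18 H2B, 12 H3 and 13 H4. The Hist1 cluster on chromosome 13 held 54 of them, the Hist2 cluster on chromosome 3 held 10, the Hist3 cluster on chromosome 11 held 2, and Hist4h4 lies alone on chromosome 6. Bulk ATAC-seq was performed on 7 libraries of HPC7, a mouse hematopoietic progenitor cell line grown with stem cell factor, each from its own batch of cultured cells, and the labels give all 7 the same condition. All libraries therefore come from 1 line, and they are named HPC7-1, HPC7-2 and HPC7-4 to HPC7-8 here. The names inside the peak lists carry the letters VD in 3 libraries and EtOH in 4, which no label explains, so they were not treated as conditions.

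Replication-dependent histone genes supply the histones that package newly copied DNA, and they are transcribed mainly in S phase. Most lack introns, and their mRNAs end in a conserved stem-loop in place of a poly(A) tail. They lie in clusters where H2A and H2B genes are often transcribed away from each other from a shared promoter region, and their transcripts are made and processed in a nuclear body organised around NPAT. In ATAC-seq the Tn5 transposase inserts adapters into accessible DNA, and a called peak is referred to as an open chromatin region (OCR). Bulk libraries average over cells, so that a site open in more cells and a site more open in each cell cannot be told apart.

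Sequence features of the promoters are shown first, because they differ between the histone classes and because several members are near-identical copies. Promoters were searched on both strands from 250 bases before to 50 bases after the annotated start. The first motif was TATAAA, the form of a box that positions the transcription machinery. The next was CCAAT, a common element of promoters that the factor NF-Y is known to bind. The octamer ATTTGCAT is bound by OCT1 and is known from H2B promoters. The last was GGTCCG, a short element of promoters of the H4 class. CCAAT was found in 83.6% of histone promoters and in 39.0% of all protein-coding promoters, and TATAAA in 55.2% and 12.6%. All 18 H2A and all 18 H2B promoters held CCAAT, as did 11 of 12 H3 and 5 of 6 H1 promoters, but 4 of 13 H4 promoters. ATTTGCAT was found in 7 H2A and 8 H2B promoters and in no H1, H3 or H4 promoter, against 1.57% of all promoters. GGTCCG was found in 12 of 13 H4 promoters, 2 H3 and 1 H2B promoter, against 9.60% of all promoters. Of the 18 H2A and 18 H2B genes, 12 of each form pairs whose starts face away from each other, 175 to 305 bp apart. Their searched stretches overlap, so the same match can count in both classes and the H2A and H2B counts are not independent. A match is a description of the letters and does not show that a factor binds.

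In the sequences below, read from the RefSeq assembly GRCm38.p6 outside annotated exons and written 5′ to 3′, capitals mark these motifs on either strand. The first 4 lie between the starts of an H2A and an H2B gene and are given on the plus strand. They show an open pair on chr13:23683960-23684198, the pair on chr13:21810200-21810366 that lacked an OCR, its inverted copy on chr13:21833508-21833742, and the testis-expressed pair on chr13:23934157-23934436.
Hist1h2ac/Hist1h2bc: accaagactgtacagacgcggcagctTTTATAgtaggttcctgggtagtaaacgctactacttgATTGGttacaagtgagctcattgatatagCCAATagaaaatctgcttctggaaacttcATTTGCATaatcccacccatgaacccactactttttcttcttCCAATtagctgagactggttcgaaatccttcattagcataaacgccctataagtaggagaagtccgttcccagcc
Hist1h2bq/Hist1h2ao: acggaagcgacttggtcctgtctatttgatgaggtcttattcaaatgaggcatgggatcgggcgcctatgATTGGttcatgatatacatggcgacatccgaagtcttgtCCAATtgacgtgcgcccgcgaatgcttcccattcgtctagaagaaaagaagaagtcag
Hist1h2ap/Hist1h2br: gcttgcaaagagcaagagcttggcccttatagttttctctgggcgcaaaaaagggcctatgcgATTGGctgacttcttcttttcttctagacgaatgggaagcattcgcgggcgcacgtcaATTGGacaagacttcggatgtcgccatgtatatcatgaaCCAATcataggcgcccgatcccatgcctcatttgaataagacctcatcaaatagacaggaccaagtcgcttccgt
Hist1h2ba/Hist1h2aa: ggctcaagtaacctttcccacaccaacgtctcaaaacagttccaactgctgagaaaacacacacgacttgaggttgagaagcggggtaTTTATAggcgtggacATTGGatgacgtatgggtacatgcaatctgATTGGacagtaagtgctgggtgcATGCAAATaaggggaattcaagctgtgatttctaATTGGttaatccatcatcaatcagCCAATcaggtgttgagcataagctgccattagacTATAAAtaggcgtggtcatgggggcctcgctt
The remaining sequences lie before the start of H4 genes, on the strand of the gene, and show GGTCCG in genes of high and low fold enrichment. They come from chr6:136804432-136804615 on the minus strand, chr13:21750554-21750705 on the minus strand, chr13:21734864-21735033 on the plus strand and chr13:21811546-21811745 on the plus strand. The searched promoter of Hist1h4j also holds TATAAA, outside the stretch printed here.
Hist4h4: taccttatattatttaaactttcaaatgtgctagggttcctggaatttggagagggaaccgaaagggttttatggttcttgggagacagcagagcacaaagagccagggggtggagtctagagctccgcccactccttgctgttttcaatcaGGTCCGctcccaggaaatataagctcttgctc
Hist1h4k: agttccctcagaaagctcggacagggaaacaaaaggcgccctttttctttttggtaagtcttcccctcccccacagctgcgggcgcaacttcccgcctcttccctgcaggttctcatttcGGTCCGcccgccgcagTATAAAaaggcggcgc
Hist1h4j: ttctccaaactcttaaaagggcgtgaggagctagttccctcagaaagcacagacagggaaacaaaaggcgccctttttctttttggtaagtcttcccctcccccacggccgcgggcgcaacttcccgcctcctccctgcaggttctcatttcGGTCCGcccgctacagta
Hist1h4m: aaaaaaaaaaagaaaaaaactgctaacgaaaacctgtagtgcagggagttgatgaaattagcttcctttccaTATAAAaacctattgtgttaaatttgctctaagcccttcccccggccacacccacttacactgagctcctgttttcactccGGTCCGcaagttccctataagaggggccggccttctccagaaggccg
The 200 bases before the start of Hist1h4n are identical to those of Hist1h4m. Downstream of the stop codon, 65 of 67 members held a stem-loop of 16 bases, searched as a pattern within 200 bases and found 22 to 59 bases after the stop. The commonest form, in 41 members, is shown with its 6-base stem in capitals.
Stem-loop: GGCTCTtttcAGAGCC
Hist1h2an and Hist2h2be held no match. The coding sequences of the 13 H4 genes gave 1 protein and those of the 12 H3 genes 2, whereas the 18 H2A genes gave 9, the 18 H2B genes 11 and the 6 H1 genes 6.

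Signal was read as the fold enrichment of the strongest peak within 1 kb of the annotated start, which is a ratio of reads at the summit to the background of the library, set to 0 where no peak was called. The lists held 84593 to 132852 peaks, and the background inferred from the step between fold enrichments came to 4.44 reads in HPC7-2 and 20.4 reads in HPC7-1. At the summits of histone promoter peaks the median ranged from 579 reads in HPC7-2 to 3169 in HPC7-1 and the weakest such peak held 24 reads, in HPC7-8. Of 10 genes that mark hematopoietic progenitors, 9 had an OCR at the start in all 7 libraries, where 51.6% of all protein-coding genes did. These 9 include Kit and Tal1, but also Lhx2, the lowest of them, with fold enrichments of 4.38 to 7.44. Lhx2 lay below the median protein-coding promoter in the sign-flip test described below. Gata2 had none within 1 kb of its annotated start.

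An OCR lay within 1 kb of the start at nearly all histone genes. The share with an OCR was 89.6% to 92.5% per library and 91.3% ± 1.34 (SD, n = 7) on average, against 53.9% ± 1.14 of the 21871 other protein-coding genes, and it was higher in 7 of 7 libraries. In total, 60 of 67 histone genes had an OCR in all 7 libraries, where 51.6% of all protein-coding genes did. Of the others, 5 had none in any library, where 42.9% of all genes had none, and Hist1h1t and Hist1h2ap had one in 4 libraries each. All 12 H3 and all 13 H4 genes had an OCR in every library, as did 15 of 18 H2A, 15 of 18 H2B and 5 of 6 H1 genes.

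Fold enrichment was high, and similar at most histone genes. By library, in the order HPC7-1, HPC7-2 and HPC7-4 to HPC7-8, the median fold enrichment of histone promoters was 144, 107, 166, 135, 89.3, 139 and 137. HPC7-6 was the lowest library for 58 of the 60 genes with an OCR in all 7, and HPC7-4 the highest for 46, so that the genes moved together between libraries. By the median of other promoters HPC7-6 was also lowest, at 4.85, while HPC7-1 was highest, at 8.33. The mean of these medians was 131 ± 25.3 (SD, n = 7), against 6.83 ± 1.24 for other protein-coding promoters, which include those without a peak. The latter value depends on the window and the start, and was 13.8 with a 3 kb window and 16.5 with any annotated transcript start. Among promoters with an OCR in all 7 libraries the median of the mean fold enrichment was 134 in histone genes and 79.8 in the 11267 other genes. The quartiles of the 60 histone genes were 120 and 146, while those of the other genes ran from 46.5 to 122, as the plot of mean fold enrichment shows. Between 100 and 160 there were 46 of the 60 histone genes (76.7%) and 24.9% of the other genes, bounds chosen after the values were seen. A few genes lay far from the rest, and the highest mean was 32.7 times the lowest. Among the 60 genes, 79.9% of the variance of log2 fold enrichment lay between genes and 15.0% between libraries. Many members share 1 peak, so the genes are not independent measurements. The coefficient of variation over libraries had a median of 20.1%, which came to 6.73% once each value was divided by the median member of its library. For the 11267 other promoters it was 20.2%, and 15.9% after the same division. The divisor is taken from the members themselves, which draws their own values closer together. With each merged OCR counted once, the median fold enrichment was 129. Within the 3 libraries named VD the median averaged 139 and within the 4 named EtOH 125, against 6.94 and 6.74 for other promoters.

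**Figure D1:**
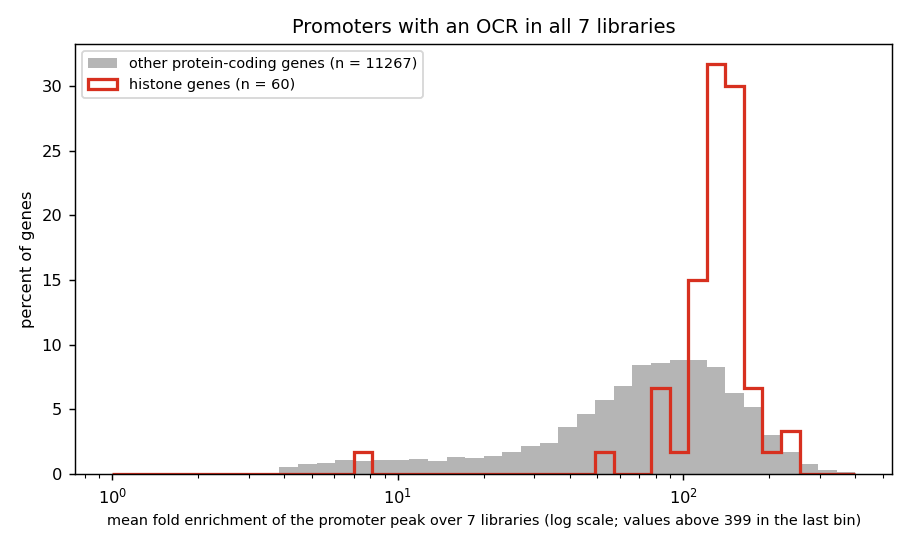
Histogram of the mean fold enrichment over 7 libraries (log axis) of promoters with an OCR in all 7, as the percent of 11267 other protein-coding genes (grey) and of 60 histone genes (red line). The histone genes form a narrow peak with quartiles of 120 and 146, within the upper part of the broad distribution of the other genes.

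Each gene was compared with the median protein-coding promoter of the same library on the log2(fold enrichment + 1) scale, with an exact two-sided sign-flip permutation test over the 7 libraries adjusted by Benjamini-Hochberg over all 21938 genes. By this test 59 of 67 histone genes (49.2% of all genes) lay above the median and 6 (49.1% of all genes) below, and every one of these 65 had an adjusted p of 0.016, from the smallest p that the sign patterns of 7 libraries allow, 0.0156. The 6 below were Hist1h2bq, Hist1h2ao, Hist1h2br, Hist1h2ba, Hist1h2aa and Hist1h1t. The first 5 have no peak and a value of 0 in every library, so that their outcome was fixed by the absence of a peak and the p adds nothing to it. Hist3h2ba and Hist1h2ap passed in neither direction with the 1 kb window. With windows of 500 bp and 3 kb both passed, each on opposite sides of the median, so their calls depend on the window. Against the median of promoters with a peak, a higher bar, 55 histone genes lay above (24.5% of all genes) and 8 below (70.4% of all genes). In total, 12 of 67 members were in the top 10% of promoters in all 7 libraries, where 7.4% of all genes were, and the fold enrichment needed for it ran from 98.2 to 168 between libraries. The median histone promoter stood at percentile 88.6 ± 3.64 (SD, n = 7) of protein-coding promoters, and its peak at percentile 97.4 ± 1.06 of all peaks of its library.

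The plot of all members by library shows where the genes depart from this common level. The highest values were at Hist2h2aa2 and Hist2h3c2, an H2A and an H3 gene under the same peak, with a lowest value of 178, a median of 222 and a highest value of 283. Their mean was 235 ± 38.2 (SD, n = 7), at percentile 99.8 of all peaks. Hist4h4, the H4 gene outside the clusters, ranged from 146 over a median of 208 to 238. Hist1h4h, Hist1h2af and Hist1h3g shared a peak that ranged from 114 over 176 to 219. Hist1h4k ranged from 125 over 179 to 204, and the pair Hist1h2ak and Hist1h2bn from 106 over 168 to 211. In HPC7-7 the value of Hist1h4k is that of the peak of this pair. The ranges of these genes overlap one another, but Hist2h2aa2 and Hist2h3c2 were highest among the members in each of the 7 libraries. Of the bases within 1 kb of their starts, 63.1% and 83.0% occurs elsewhere in the genome, and how such reads were handled is not known here.

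**Figure D2:**
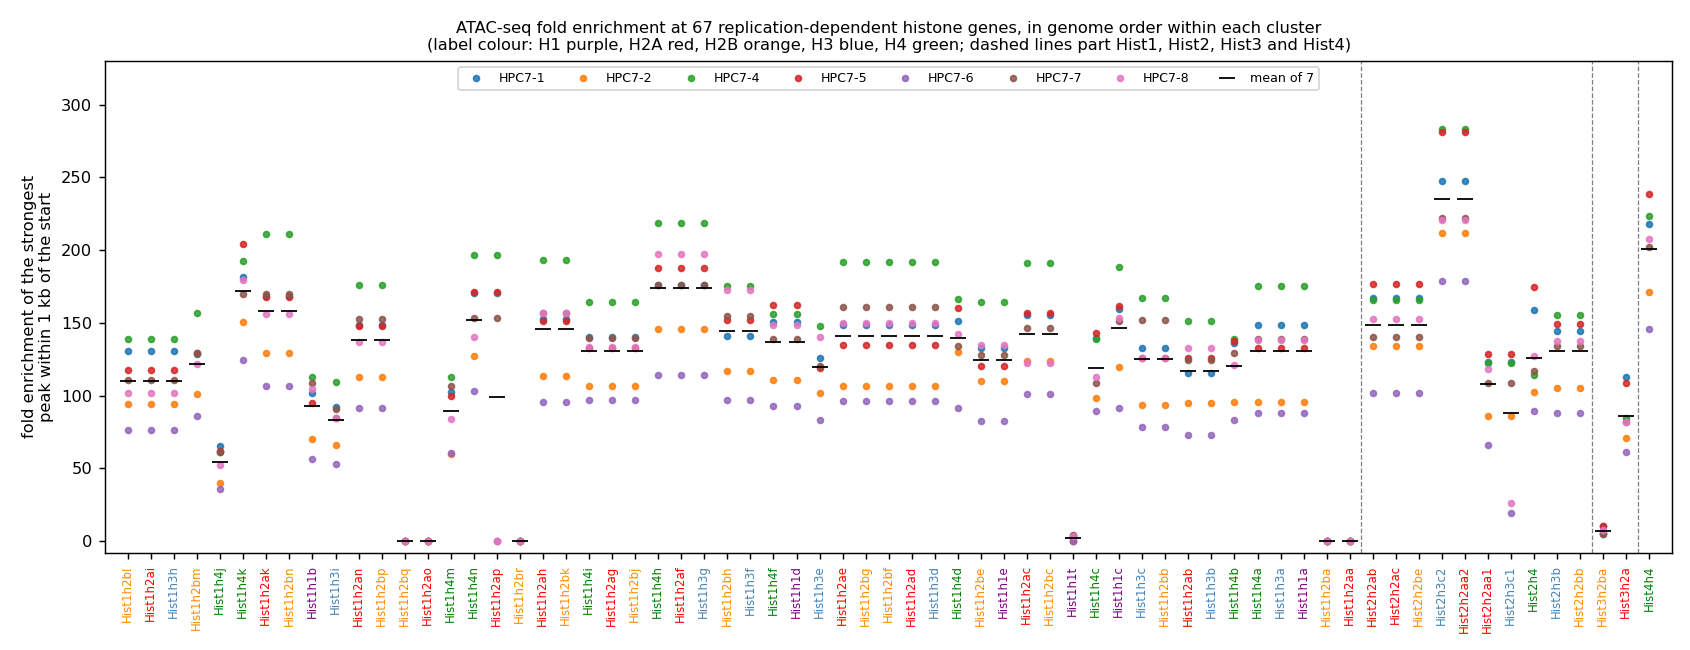
Fold enrichment of the strongest peak within 1 kb of the start (vertical axis, ratio) for the 67 histone genes in genome order within each cluster, with a point per library and a bar for the mean of 7. Most genes lie between 100 and 160 on average, with HPC7-6 lowest, and the genes at or near 0 are Hist1h2bq, Hist1h2ao, Hist1h2br, Hist1h1t, Hist1h2ba, Hist1h2aa and Hist3h2ba, and Hist1h2ap in 3 libraries.

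Among genes with an OCR in all 7 libraries the lowest was Hist3h2ba, an H2B gene of the Hist3 cluster. It ranged from 4.66 over a median of 6.61 to 10.6, and its peak was 326 ± 64.5 bp wide (SD, n = 7). All 7 values lay below every value of the next gene, Hist1h4j, an H4 gene that ranged from 36.0 over 61.0 to 65.4. Hist1h3i followed with a mean of 83.0 ± 18.4 (SD, n = 7), Hist3h2a, the H2A gene of the Hist3 cluster, with 86.1 ± 18.8, Hist2h3c1 with 87.7 ± 46.6, Hist1h4m with 89.4 ± 21.9, Hist1h1b with 92.7 ± 21.4 and Hist2h2aa1 with 108 ± 23.0. The ranges of these last 6 genes overlap one another, and their order was not tested.

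By class, the median levels lay close together, but members of different classes often share a peak and take its value. The class medians are therefore not independent, and in HPC7-2 the medians of H2A, H2B and H4 were all 106.56. The median fold enrichment of a class averaged 126 ± 25 for H1, 134 ± 25.6 for H2A, 130 ± 24.6 for H2B, 127 ± 25.9 for H3 and 136 ± 27.2 for H4 (SD, n = 7 libraries), an SD that is shared, since all classes were read in the same libraries. Within libraries, the H4 median was higher than the H3 median by 8.99 ± 10.1 and than the H1 median by 9.35 ± 11, with the same sign in 7 of 7 libraries, and these differences were not tested. The highest member was Hist1h1c in H1, at 146 ± 31.5, Hist2h2aa2 in H2A, Hist1h2bn in H2B, Hist2h3c2 in H3 and Hist4h4 in H4. The value of Hist2h3c2 is that of the peak it shares with Hist2h2aa2. The summit lay 1188 ± 2.73 bp before the start of Hist2h3c2 and 38.9 ± 2.73 bp before that of Hist2h2aa2. Between clusters, Hist1 had a median of 130 ± 24.9 over its 54 genes and Hist2 of 142 ± 27.7 over its 10 genes. The 2 genes of Hist3 had the values given above, and their median was 46.6 ± 10.4. The median promoter fold enrichment of chromosome 13 was 1.03 ± 0.0309 times that of the median autosome and that of chromosome 3 was 1.02 ± 0.0155 times (SD, n = 7). For chromosome 11, with Hist3, it was 0.919 ± 0.0529 times and for chromosome 6, with Hist4h4, 0.857 ± 0.0185 times.

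The OCRs of histone genes were wide, and widest where several members were assigned to them. The median width was 3043 to 3914 bp per library and 3459 ± 352 bp on average (SD, n = 7), against 1692 ± 176 bp at other promoters with a peak, and it was higher in 7 of 7 libraries. Among promoter peaks in the top 10% of the library by fold enrichment the widths were 3505 bp and 1942 bp. Peaks over 3 kb were found at 63.9% ± 7.59 of histone genes with an OCR and at 9.50% ± 4.36 of the other genes with one. Counting each merged OCR once, the median width fell to 3019 bp. H4 genes had the lowest median width in 7 of 7 libraries, 2542 ± 313 bp on average, beside H2A with 3924 ± 360 bp, H2B with 3676 ± 305 bp, H3 with 3695 ± 635 bp and H1 with 3149 ± 149 bp.

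Merged over libraries, the peaks at the 62 members with an OCR in at least 1 library formed 35 OCRs, of which 34 were seen in all 7 libraries. By the 1 kb rule, 16 of them had a single member and 19 were shared, 7 by 3 or more members. The OCRs of Hist3h2ba and of Hist1h1t held 0 starts. Those of Hist1h4n with Hist1h2ap and of Hist1h4f with Hist1h1d held 1, and that of Hist1h4k, Hist1h2ak and Hist1h2bn held 2. Hist1h4k counts in 2 OCRs, since its peak in HPC7-7 was that of its neighbours. A wider peak reaches more 1 kb windows, so width and the number of members are linked in part by this rule. The median width of the strongest peak was 2600 bp in OCRs with 1 member, 3156 bp in those with 2 and 4694 bp in those with 3 to 5. The fullest held Hist1h2ae, Hist1h2bg, Hist1h2bf, Hist1h2ad and Hist1h3d on chr13:23569595-23578016, where the strongest peak was 7973 ± 353 bp wide (SD, n = 7). That of Hist1h4h, Hist1h2af and Hist1h3g, on chr13:23529928-23537736, was 7316 ± 540 bp wide. Fold enrichment differed less between these sizes of OCR, with medians of 119, 138 and 141 in the same 3 groups.

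**Figure D3:**
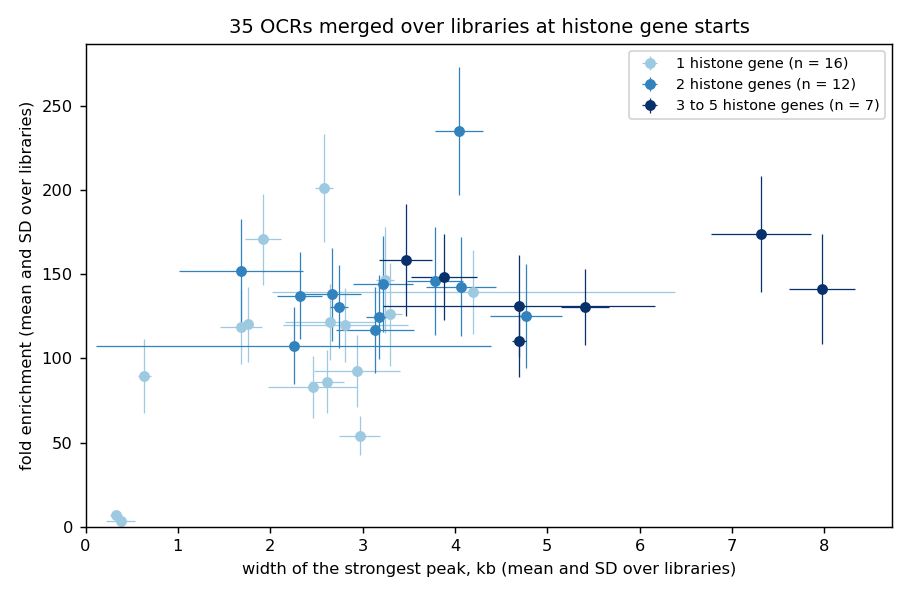
Fold enrichment against the width of the strongest peak in kb for 35 merged OCRs near histone gene starts, as mean and SD over the libraries with a peak. Colours give the number of histone genes assigned to each by the 1 kb rule. The widest 2 OCRs hold 3 and 5 members, and OCRs with 3 to 5 members have a median width of 4694 bp, while fold enrichment lies between 110 and 174 for them.

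The peaks did not stop at the promoter but covered the genes. Histone genes are short, with a median span of 539 bp against 17561 bp for other protein-coding genes, and 61 of 67 have 1 annotated exon. The median histone gene had 100% of its span inside peaks in every library, and 69.7% ± 3.83 of members were covered completely (SD, n = 7). Of the other genes 0.452% ± 0.136 were covered completely, and of the 1211 other genes with 1 exon, whose median span is 1085 bp, 3.75% ± 0.653. Only 22.2% ± 1.11 of those 1-exon genes had an OCR, and among genes with an OCR in the library 16.9% ± 2.30 of them were covered completely, against 76.4% ± 3.32 of the members. The longest models were covered in part, such as Hist1h2be with 20.1% and Hist1h2bc with 30.0% of the span. The annotated start of Hist1h2be lies 35168 bases before its first coding base, next to Hist1h1e, so its value is that of the Hist1h1e peak. Likewise the start of Hist1h1d lies 1828 bases before its first coding base, and its value, counted above among H1 genes with an OCR and above the median, is that of the Hist1h4f peak, whose summit lies 1644 ± 2.34 bp before that start.

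Summits lay near annotated starts. Per library there were 34 to 36 distinct peaks at the members, and 85.2% ± 3.53 of their summits lay within 250 bp of a histone gene start (SD, n = 7). The median distance to the nearest histone start was 75.4 ± 11.9 bp. Seen from each gene, the median summit lay 47.1 ± 16.4 bp before the start, and at H4 genes 44.3 ± 16.8 bp after it, as the plot of summits by class shows. At H2B genes it lay 109 ± 14.5 bp and at H2A genes 81.3 ± 32.8 bp before the start. Counted within each library, the summit lay within 250 bp of the gene's own start at 8.29 ± 0.756 of 13 H4 genes, 10.7 ± 0.488 of 16 H2A genes and 11.4 ± 1.13 of 15 H2B genes with a peak in any library (SD, n = 7). The same count was 4.29 ± 0.488 of 12 H3 genes and 1.43 ± 0.976 of 6 H1 genes. The strongest summit moved between sites at some genes, so that it lay within 250 bp of the start in 4 of 7 libraries at Hist1h1c and Hist1h1e, in 6 at Hist1h4k and in none at Hist1h4j. The nearest start to the summit belonged to an H4 gene at 11.1 ± 0.690 peaks per library and to an H3 gene at 4.29 ± 0.488. Annotated starts vary in kind, since 11 members have a start at the first coding base and 56 a start before it, by a median of 38 bases.

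**Figure D4:**
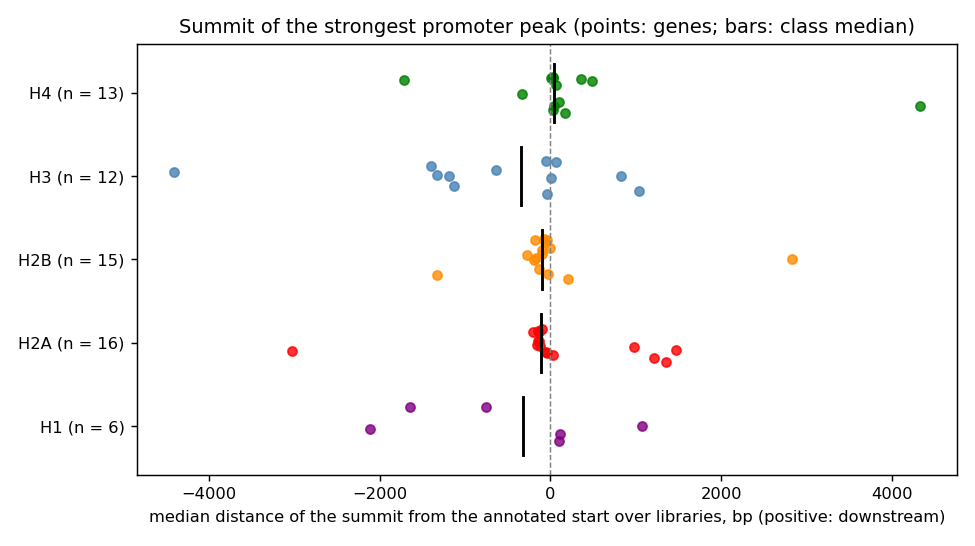
Median distance over libraries of the summit of the strongest promoter peak from the annotated start in bp (positive downstream), with a point for each of the 62 histone genes with a peak and a bar for the class median. The class medians lie just after the start for H4 and before it for H2A, H2B and H3, and at -325 bp for H1, although within single libraries the H1 median lay after the start in 4 of 7, and single genes of H3 and H4 lie over 4 kb from their start.

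In total, 13 pairs of members had starts within 1 kb facing away from each other, 12 of an H2A with an H2B gene and 1 of Hist1h2bh with Hist1h3f. The starts of the 12 pairs were 175 to 305 bp apart, with a median of 258.5 bp. In 9 of the 12 a single peak covered both starts in all 7 libraries, and in 3 in none. The summit lay between the starts in all 7 libraries in 4 of the 12, among them Hist1h2ac with Hist1h2bc, whose values ran from 101 over 146 to 191. The 3 pairs without such a peak were Hist1h2bq with Hist1h2ao, Hist1h2ap with Hist1h2br, and Hist1h2ba with Hist1h2aa. As printed above, all 3 hold CCAAT between the starts, so these letters did not separate pairs with an OCR from pairs without.

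The 7 members without an OCR in at least 1 library fell into the testis-expressed genes and the copies of an inverted repeat. Hist1h2ba and Hist1h2aa, an H2B and an H2A gene known from the male germ line, had no peak within 1 kb in any library. Their own sub-cluster had 0% of its bases in peaks, and none of the 2001 bases round either start was repeated elsewhere. Hist1h1t, a testis H1 gene, had a value of 0 in 3 libraries and of 3.55 to 3.93 in 4, from a peak whose summit lay 754 ± 9.26 bp before the start. All 3 promoters hold CCAAT, and those of Hist1h2ba and Hist1h2aa also TATAAA and the octamer. The highest value of Hist1h1t lay below the lowest value of Hist3h2ba.

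Hist1h2bq, Hist1h2ao and Hist1h2br had no OCR in any library, and 100% of the 2001 bases round each start occurs elsewhere in the genome in exact matches of at least 50 bp. They lie in the arms of an inverted repeat of 19.4 kb, chr13:21792963-21812409 and chr13:21831532-21850923, that are 98.9% identical. Peaks covered 6.51% ± 0.682 of the arms inside the sub-cluster and 26.0% ± 3.26 of the rest of it (SD, n = 7). Hist1h2ap had values of 153 to 197 in 4 libraries and 0 in 3, but these belong to the peak of Hist1h4n, whose summit lies 1350 bp downstream of the start of Hist1h2ap. The full stretches between the starts of Hist1h2bq and Hist1h2ao and of Hist1h2ap and Hist1h2br, of which the printed sequences are parts, aligned with 235 identical bases, 0 mismatches and 32 gap columns. How reads that align equally well to both copies were handled is not given in the sources used here, and the part of repeated sequence in the absence of these peaks was not tested.

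**Figure D5:**
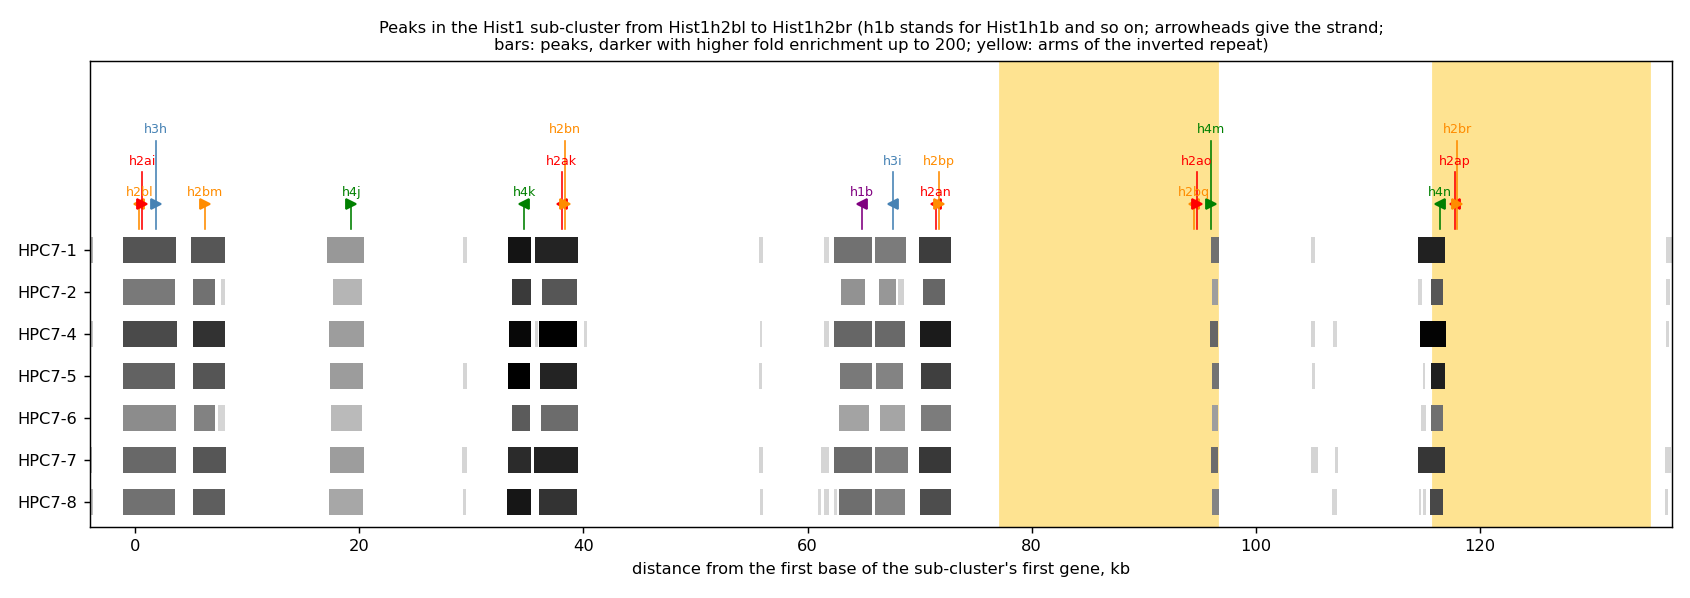
Peaks of each library (bars, darker with higher fold enrichment) over the Hist1 sub-cluster from Hist1h2bl to Hist1h2br, against the distance in kb from its first base, with gene starts above and the arms of the inverted repeat in yellow. Peaks recur at the same genes in all 7 libraries, and inside the arms they lie only at their inner ends, at Hist1h4m and Hist1h4n.

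The H4 genes at the inner ends of the arms had an OCR in all 7 libraries, and 99.9% of the window of Hist1h4n and 99.95% of that of Hist1h4m is repeated. Their merged OCRs reached past the inner ends of the repeat, but unequally. That of Hist1h4m, on chr13:21811629-21812426, ended only just past the inner end of its arm at 21812409. That of Hist1h4n, on chr13:21830187-21832707, reached much further past the inner end of its arm at 21831532. Hist1h4m ranged from 59.9 over 99.7 to 113 and Hist1h4n from 103 over 153 to 197, and Hist1h4m was lower in 7 of 7 libraries, with Hist1h4n 1.72 ± 0.205 times higher (SD, n = 7). The 200 bases before their starts are identical, but the values were read at different sites. The summit lay 475 ± 18.2 bp after the start of Hist1h4m and 39.4 ± 0.787 bp after that of Hist1h4n. The peak of Hist1h4m was 637 ± 71.8 bp wide and that of Hist1h4n 1683 ± 671 bp. These pairs of copies were compared after their values were seen, with no test.

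A shorter inverted repeat in the Hist2 cluster also held copies of unequal level. Its arms, chr3:96238459-96240573 with Hist2h3c2 and Hist2h2aa2 and chr3:96245258-96247368 with Hist2h2aa1 and Hist2h3c1, are 99.5% identical with 6 mismatches. Hist2h2aa1 ranged from 66.3 over 118 to 129 and was lower than Hist2h2aa2 in 7 of 7 libraries, with Hist2h2aa2 2.22 ± 0.284 times higher (SD, n = 7). These values too were read at different sites, with the summit 206 ± 0.378 bp before the start of Hist2h2aa1 and 38.9 ± 2.73 bp before that of Hist2h2aa2. Hist2h3c1 had the value of the Hist2h2aa1 peak in 5 libraries, but 19.1 in HPC7-6 and 26.2 in HPC7-8, where separate, narrower peaks were called. Peaks covered 100% of the first arm in every library and 47.9% to 100% of the second. The handling of reads that align to both arms is not known here either, and its part in these levels was not tested. Hist1h4j and Hist1h4k are less alike, with 159 identical bases, 9 mismatches and 64 gap columns over the 200 bases before the start, and both carry GGTCCG in the printed sequences. Hist1h4k was 3.23 ± 0.363 times higher than Hist1h4j and higher in 7 of 7 libraries. In HPC7-7, however, the value of Hist1h4k is that of the peak of Hist1h2ak and Hist1h2bn, with its summit at -3439 bp. The summit of Hist1h4j lay at -853 bp in HPC7-2, at -866 bp in HPC7-6 and at 357 to 359 bp in the other libraries. The ratio is therefore not one between the printed stretches.

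Outside the members, most genes of the Hist1 cluster had no OCR. Of the 49 other protein-coding genes with a start between the first and the last Hist1 start, 7 had an OCR in all 7 libraries and 41 in none. These 41 include all 36 Vmn1r genes, which encode vomeronasal receptors. Of the other 13 neighbours 7 had an OCR in all 7 libraries and 5 in none, shares near the 51.6% and 42.9% of all protein-coding genes. The share with an OCR per library was 59.3% ± 3.75 of these 13 and 15.7% ± 0.996 of all 49 neighbours, against 89.2% ± 1.67 of the 54 Hist1 genes. The highest neighbour was Slc17a4, a solute carrier gene, with 202 ± 38.4 (SD, n = 7), and Hfe, 12400 bp from the nearest histone start, had 16.2 ± 8.90. No other protein-coding gene starts inside the Hist2 cluster. The Hist1 sub-clusters with an OCR had between 21.9% ± 2.66 and 82.3% ± 6.34 of their bases in peaks, and the Hist2 cluster 39.4% ± 4.82, where chromosome 13 as a whole had 2.32% ± 0.443 and chromosome 3 had 1.90% ± 0.339.

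Most other genes of histone supply also had an OCR, and the median peak of each of 3 lists was narrower than that of the members in 7 of 7 libraries, without a test. Of 11 replication-independent histone genes, which supply variant histones outside S phase, 10 had an OCR in all 7 libraries, 9 lay above the median promoter and 2 below, where 51.6% of all genes had an OCR in all 7 and 49.2% lay above. H2afv, an H2A.Z gene, was highest with 228 ± 45.9 (SD, n = 7), and H2afy2, a macroH2A gene, had no OCR in any library. H3f3b lay below the median with 4.85 ± 1.36, read from a peak 344 ± 66.5 bp wide at the outermost annotated start. Values at other transcript starts are not given for this list. The median width of these 11 genes was 2387 ± 270 bp, against 3459 ± 352 bp at the members. The interquartile ratio of the mean fold enrichment among those with a peak was 3.43, against 1.22 among the members with one, and it was 2.05 and 2.15 in the lists of locus and processing genes and of chaperones that follow. Of 13 genes of the histone locus and of histone mRNA processing, 12 lay above the median, led by Npat, the activator of histone transcription, with 216 ± 42.1, and followed down to Lsm11, a U7 snRNP subunit, with 73.9 ± 9.96. Zfp473 had no OCR in any library. All 12 histone chaperone genes lay above the median, from Daxx, which deposits H3.3, with 276 ± 64.2 to Atrx, its partner, with 40.1 ± 6.19. The median fold enrichment of these 3 lists was 88.7 ± 14.2, 102 ± 14.3 and 118 ± 20, against 131 ± 25.3 for the members. It was below that of the members in 7, 7 and 6 of 7 libraries.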

How the data were processed

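The data were 7 deposited lists of ATAC-seq peaks from HPC7 cells. Per the labels, the authors used Cutadapt for trimming, BWA-mem for alignment (mm10) and MACS2 for peaks, library by library, and versions, options and the handling of reads with several alignments are not given in the sources used here. The deposited fold enrichment is a ratio of summit reads to background, each plus 1, and the deposited -log10 p-values and q-values and a score derived from them are per the file format of the peak caller. In every list 100% of these ratios fell on multiples of 1 smallest step, to within 0.05 of it, which gave summit and background reads. Reads without molecular identifiers are not independent molecules, so these numbers cover counting error only and understate the error. No total read depth was used.

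A peak was assigned to a gene when it overlapped 1 kb on either side of the 5′ end of the gene in GENCODE M21, and the peak of highest fold enrichment was kept. Percentiles rank a peak among all peaks of its library, and a gene without a peak counts as 0. Genes were tested on log2(fold enrichment + 1), minus the median of the 21938 protein-coding genes, by exact permutation of signs (two-sided) across libraries, with a threshold of 0.05 after Benjamini-Hochberg adjustment. P-values measure the spread between 7 culture batches of 1 line. The members, lists and tests were chosen with earlier results of these data known, and other comparisons between genes are descriptions with no test, while Dixon's criterion was used to find libraries that stand apart. Genes were named by a rule: the 8 members of highest and of lowest mean fold enrichment with an OCR in all 7 libraries (ties included), every member without an OCR in at least 1 library, the extremes of each class, the Hist3, Hist4 and testis-expressed members, and from each list the extremes and the genes without an OCR. Repeats were found with blastn 2.17.0. Python 3.11.15, numpy 2.4.6, pandas 2.3.3, R 4.3.3 and limma 3.58.1 were used, and the promoter lookup, the cover and the sign-flip test were tested on simulated data. Alternatives were other windows, starts, peak filters and medians, limma, a pseudocount of 0.5, members without repeated sequence, and each library left out in turn. The check on markers of other cell types is not reported here.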

Additional observations from a re-analysis of the deposited data

Results flagged for a closer look

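Dixon's criterion for 7 values was set against 157 sets of values over the libraries, where sets with a missing value or no spread could not be tested. Of the sets, 7 had a value far from the others, and chance alone gives about 1 in 20 of those tested. Genes that share a peak enter more than once. The promoter peaks of Hist2h3b and Hist2h2bb, which share a peak, were 2527 bp wide in HPC7-5 and 2753 to 2795 bp in the other libraries. The peak kept for Hist1h4k was 3900 bp wide in HPC7-7, where it was the neighbouring peak of Hist1h2ak and Hist1h2bn, and 1631 to 2104 bp elsewhere. The shared peak of Hist1h2an and Hist1h2bp was 2018 bp wide in HPC7-2 and 2632 to 2908 bp elsewhere. The peak of Hist1h4m was 794 bp wide in HPC7-4 and 580 to 637 bp elsewhere. The median width at other protein-coding promoters was 2059 bp in HPC7-1, which has the highest background, and 1559 to 1742 bp in the other libraries. All these values concern width, and no fold enrichment of a member stood apart in this way.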

How the results depend on the processing

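Over the alternatives run, the median fold enrichment and percentile of histone promoters, the medians by class and cluster, and the counts with an OCR in all libraries, in the top 10% of promoters and above the median promoter stayed close to their values, and leaving out any 1 library did so too. A 3 kb window raised the share of histone genes with an OCR to 97.4% and of other genes to 59.8%, and left 0 histone genes without an OCR in any library and 3 below the median promoter, since it reaches the neighbouring peaks. It reversed Hist1h1t, Hist1h2ao, Hist1h2bq and Hist1h2br, which then lay 2.97, 2.55, 2.55 and 3.32 above the median promoter (log2). A 500 bp window lowered the shares to 88.7% and 51.7%, and Hist1h1d lost its call. Hist1h2ap and Hist3h2ba lay -2.45 and 0.53 from the median promoter (log2) with 500 bp, and 3.32 and -0.92 with 3 kb. With any annotated transcript start Hist3h2ba lay at -1.16. Each of these values for Hist1h2ap and Hist3h2ba passed the threshold (adjusted p 0.016, sign-flip test). Without the 11 genes of mostly repeated sequence the share was 95.7%, 2 genes had no OCR in any library, 3 lay below the median, and the median width of H4 peaks was 2918 bp. The median width was 3019 bp with each merged OCR counted once. Other promoters had a median fold enrichment of 4.32 with 500 bp, 13.8 with 3 kb and 16.5 with any transcript start, a share with an OCR of 58.5% with any start and 52.6% with equal numbers of peaks, a median width of 1942 bp in the top 10% of peaks, and a median cover of 0% among genes with 1 exon. Limma and a pseudocount of 0.5 gave the counts reported. No paired analysis was possible because all libraries belong to 1 group, so no replicate numbers are shared between groups of samples, and genes were compared within libraries. Total depth was not used, so its part in the weakest peaks was not tested.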

Other observations

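Histone pseudogenes that the annotation does not count as protein-coding also lay at OCRs in all 7 libraries. Hist1h2aj, 236 bp from the start of a histone gene, shared its peak with a mean fold enrichment of 122 ± 22.7 (SD, n = 7), and Hist3h2bb-ps, 173 bp from the start of Hist3h2a, had 86.1 ± 18.8. Hist1h2al lies on chromosome 13 far from the Hist1 cluster, 27268603 bp from the nearest member, and had 50.3 ± 10.8, with the lowest library at 37.5 and the highest at 68.0. Its lowest value lay above every value of Hist3h2ba, a protein-coding member. The pseudogenes were looked at after the values of the members were seen.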
